A study of Mus musculus with 8 samples.

Results

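Interferon response genes were read in iWAT (inguinal white adipose tissue, a subcutaneous depot) of male mice, all of them fed a high-fat diet (HFD). The set held 41 of the 54532 genes in the table, chosen by name with earlier results of these data known. It comprised 3 interferon receptor chains, 7 transcription factors (6 of the interferon regulatory factor family and Stat2), 24 genes induced by type I interferon and 7 genes best known as induced by interferon gamma. The 8 libraries fell into KLF10AKO (4 libraries of HFD-fed mice with an adipocyte knockout of KLF10, a zinc-finger transcription factor) and WT (4 libraries of HFD-fed wild-type mice). Neither the Cre driver, the strain, the age, nor the animal behind each library is given in the sources used here, so each p-value reflects how far these libraries spread, which may be technical. Levels are FPKM as the authors computed them, read counts divided by gene length and by a library size that they had scaled between samples.

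Interferons are secreted signals of virus infection and immune activation. Type I interferons (alpha and beta) bind the chains encoded by Ifnar1 and Ifnar2 and act through a complex that holds STAT2 and IRF9 and binds the interferon-stimulated response element (ISRE). Interferon gamma, made by T and NK cells, binds the chains encoded by Ifngr1 and Ifngr2 and acts at the gamma-activated site (GAS), and many of its targets, guanylate-binding proteins among them, also respond to type I interferon. Adipocytes, stromal cells, endothelium and leukocytes of a fat pad all express such genes.

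The libraries differed in more than the targeted gene. Klf10 itself stood at 9.39, 9.68, 9.75 and 9.59 FPKM in KLF10AKO and 16.7, 18.2, 16.7 and 21.1 FPKM in WT (log2 change -0.88, limma adjusted p = 8.96e-06), and turned to 0.74 after scaling to adipocyte markers. Recovered reads ranged from 15537863 to 17499132 per library. The marker counts that follow stand beside 39.4% of all genes tested that rose in KLF10AKO and 34.9% that fell. All 12 adipocyte markers fell (summed level 5242 to 6590 FPKM in KLF10AKO and 15644 to 17613 FPKM in WT), with 0 of them at 0 reads in either group, and so did all 5 fibroblast markers. All 9 B cell markers rose (1133 to 1685 FPKM summed in KLF10AKO and 2.92 to 4.39 FPKM in WT), as did all 9 T cell markers (242 to 357 FPKM summed in KLF10AKO and 1.97 to 3.64 FPKM in WT), 4 of 4 NK cell markers (11.6 to 17.1 FPKM in KLF10AKO and 2.08 to 2.59 FPKM in WT) and 3 of 4 plasmacytoid dendritic cell markers (11.6 to 16.8 FPKM in KLF10AKO and 0.355 to 0.676 FPKM in WT). The other of those 4, Ccr9, was under the filter for testing, a mean of 0.5 FPKM over the 8 libraries. Most B and T cell markers, the NK cell marker Eomes and every tested plasmacytoid dendritic cell marker passed that filter through KLF10AKO alone. Examples are Ms4a1, Pax5 and Siglech, with WT means of 0.0990, 0.110 and 0.456 FPKM. Being tested thus already required a difference. Of 5 conventional dendritic cell markers 4 rose and 1, Zbtb46, fell (log2 change -0.42). Xcr1 and Flt3 of that list passed the filter through KLF10AKO alone, with WT means of 0.186 and 0.136 FPKM. Of 8 macrophage markers 1 rose and 5 fell (868 to 898 FPKM summed in KLF10AKO and 666 to 750 FPKM in WT). Skeletal muscle markers reached a summed level of 10050.5 FPKM in the highest KLF10AKO library but 34.9 FPKM in KLF10AKO replicate 4, against 166 to 219 FPKM in WT. Of 6 trophoblast markers 5 had 0 reads in every KLF10AKO library, while all 6 were read in WT (0 to 0.0520 FPKM summed in KLF10AKO and 19.1 to 48.6 FPKM in WT). Trophoblast, a placental cell type, is no part of the fat pad of a male mouse, and muscle and lymphocyte transcripts at these levels are not those of adipose tissue alone. Whether every library holds the tissue and genotype on its label could not be settled from the files, and each KLF10AKO value set against WT rests on those labels. The part of these cell types in the results below was not tested, and what separates all 4 WT libraries from all 4 KLF10AKO libraries cannot be told apart from the genotype.

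Most interferon response genes were higher in KLF10AKO iWAT than in WT iWAT. A gene is said to have risen or fallen where limma's test on log2(FPKM + 0.5), adjusted by Benjamini-Hochberg over all genes tested, gave a p under 0.05, and changes are KLF10AKO over WT on that log2 scale. Of the 41 genes 37 rose (90.2%), 3 fell (Ifi27l2a, Ifngr1 and Ifnar2) and 1 did not pass (Gbp2). Among all 16012 genes tested 39.4% rose and 34.9% fell, so 74.3% differed in either direction. The share of rises was higher among the interferon genes. Because these genes were chosen with earlier results of these data known, that excess was not tested. The median log2 change was 1.29 over the 41 genes and 0.05 over all genes tested. In 37 of the 41 genes the 4 KLF10AKO values all lay above the 4 WT values, as they did in 36.2% of all genes, and in the 3 that fell they all lay below, as in 33.0% of all genes. All 41 passed the filter of a mean of at least 0.5 FPKM over the 8 libraries. Oas3 did so through KLF10AKO alone, so its place among the tested genes already required a difference. In bulk tissue, fewer cells of a type and less RNA per cell cannot be told apart. KLF10AKO replicate 4, the library with little muscle signal, was also set alone against WT. Median log2 changes were then 1.82 for type I induced, 1.23 for gamma induced and 0.05 for all genes tested. When every library was scaled to the 12 adipocyte markers, all 41 genes were called higher and Ifi27l2a, Ifngr1, Ifnar2 and Gbp2 changed sign. Under that scaling 14117 of the 16012 genes tested were called higher, with a median log2 change of 1.48 over all of them.

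Promoter sequences (RefSeq, build GRCm38.p6, 250 bases before to 50 bases after the annotated start) were found for 33 of the 41 genes. The other 8 are Gbp4, Ifi27l2a, Mx1, Mx2, Oas2, Rtp4, Usp18 and Zbp1. Windows are shown for the type I and gamma induced genes of lowest p among those matched and for Irf7, because the response elements that interferon signalling reads often lie there. The ISRE core was searched as GAAA, any 2 bases and GAAA again, or on the other strand TTTC, any 2 bases and TTTC, and GAS as TTCNNNGAA, which reads the same on both strands. The patterns can overlap each other, and capitals mark every match.
Oas3: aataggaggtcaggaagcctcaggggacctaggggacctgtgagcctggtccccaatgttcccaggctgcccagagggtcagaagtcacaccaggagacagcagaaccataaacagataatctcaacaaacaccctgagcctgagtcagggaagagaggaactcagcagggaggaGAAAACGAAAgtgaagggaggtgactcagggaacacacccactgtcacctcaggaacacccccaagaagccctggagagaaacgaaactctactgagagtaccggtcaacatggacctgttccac
Oasl1: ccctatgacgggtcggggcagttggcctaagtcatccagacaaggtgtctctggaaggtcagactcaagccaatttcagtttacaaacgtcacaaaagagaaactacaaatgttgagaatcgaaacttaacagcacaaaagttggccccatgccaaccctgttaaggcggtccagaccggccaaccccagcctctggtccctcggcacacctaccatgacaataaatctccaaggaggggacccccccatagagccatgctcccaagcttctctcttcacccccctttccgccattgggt
Ifit2: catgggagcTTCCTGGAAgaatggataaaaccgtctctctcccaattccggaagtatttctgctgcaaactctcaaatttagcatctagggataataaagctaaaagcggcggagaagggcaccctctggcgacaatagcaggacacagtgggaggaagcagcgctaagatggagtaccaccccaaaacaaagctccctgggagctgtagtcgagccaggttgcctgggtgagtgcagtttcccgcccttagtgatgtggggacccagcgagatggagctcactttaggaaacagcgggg
Ifit3: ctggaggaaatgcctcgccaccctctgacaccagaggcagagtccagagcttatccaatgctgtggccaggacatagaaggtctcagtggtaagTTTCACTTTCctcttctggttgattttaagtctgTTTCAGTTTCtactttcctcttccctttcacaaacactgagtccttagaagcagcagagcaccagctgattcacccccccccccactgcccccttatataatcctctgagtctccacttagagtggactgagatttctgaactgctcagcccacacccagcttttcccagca
Irgm1: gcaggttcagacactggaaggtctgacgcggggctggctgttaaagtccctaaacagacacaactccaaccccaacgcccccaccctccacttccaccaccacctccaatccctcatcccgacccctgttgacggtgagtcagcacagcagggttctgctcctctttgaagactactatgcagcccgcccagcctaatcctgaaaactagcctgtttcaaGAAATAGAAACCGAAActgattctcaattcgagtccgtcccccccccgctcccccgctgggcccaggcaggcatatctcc
Gbp5: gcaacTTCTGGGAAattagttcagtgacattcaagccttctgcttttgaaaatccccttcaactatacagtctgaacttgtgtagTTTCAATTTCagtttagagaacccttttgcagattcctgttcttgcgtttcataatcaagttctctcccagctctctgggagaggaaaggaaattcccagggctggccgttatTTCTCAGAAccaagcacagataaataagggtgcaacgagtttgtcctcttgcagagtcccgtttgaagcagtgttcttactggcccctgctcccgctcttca
Irf7: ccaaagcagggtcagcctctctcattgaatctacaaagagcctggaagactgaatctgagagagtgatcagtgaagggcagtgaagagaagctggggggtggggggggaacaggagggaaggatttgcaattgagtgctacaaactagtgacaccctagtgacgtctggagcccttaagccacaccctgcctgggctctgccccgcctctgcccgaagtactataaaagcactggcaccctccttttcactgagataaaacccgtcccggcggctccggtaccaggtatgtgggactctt

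The windows lie at chr5:120777610-120777909, minus strand for Oas3, chr5:114922990-114923289, plus strand for Oasl1, chr19:34550444-34550743, plus strand for Ifit2, chr19:34583279-34583578, plus strand for Ifit3, chr11:48871371-48871670, minus strand for Irgm1, chr3:142496684-142496983, plus strand for Gbp5 and chr7:141266375-141266674, minus strand for Irf7. Oas3 held 1 ISRE core, GAAAACGAAA, 75 bases before the start. Ifit3 held 2, TTTCACTTTC and TTTCAGTTTC, 156 and 122 bases before it. In Irgm1 the cores GAAATAGAAA and GAAACCGAAA overlapped, beginning 30 and 24 bases before the start. Gbp5 held 1 ISRE core, TTTCAATTTC, at 165 bases and 2 GAS matches, TTCTGGGAA and TTCTCAGAA, at 245 and 52 bases, and Ifit2 held a GAS match alone, TTCCTGGAA, at 241 bases. Neither pattern occurred in the windows of Oasl1 and Irf7. The start used for Gbp5 lies 2956 bases from the 5′ end that the authors' table gives.

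Over the 33 genes with a promoter, 17 held the ISRE core, against 3.99% of the 27025 genes in the promoter table, and 12 held GAS, against 9.55% of them. The ISRE core was found in 6 of 6 gamma induced genes (Gbp2, Gbp3, Gbp5, Gbp7, Igtp and Irgm1), 9 of 17 type I induced genes, 2 of 7 factors (Irf2 and Stat2) and 0 of 3 receptor chains. GAS was found in 3 of the 6 gamma induced genes, 5 of the 17 type I induced genes, 2 of the 7 factors (Irf1 and Irf2) and 2 of the 3 receptor chains (Ifnar1 and Ifnar2). Both patterns stood in 7 of the 33 genes and neither in 11. A match describes the letters of the window and shows no binding, and Gbp2, which held an ISRE core, did not pass the test between groups.

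The receptor chains did not move together. Ifnar1 (ENSMUSG00000022967, mm10 chromosome 16, 91485238 to 91507441, plus strand), one chain of the type I receptor, had 16.1, 17.1, 14.9 and 17.7 FPKM in KLF10AKO replicates 1 to 4, against 11.8, 9.64, 11.1 and 10.6 FPKM in WT replicates 1 to 4. It rose by a log2 change of 0.59 (standard error 0.0788, limma adjusted p = 1.34e-04), and every KLF10AKO value was above every WT value. Its partner Ifnar2 (ENSMUSG00000022971, chromosome 16, 91372783 to 91405589, plus strand) was read at 19.7, 21.2, 21.4 and 20.7 FPKM in KLF10AKO replicates 1 to 4, against 25.6, 24.2, 28.5 and 23.7 FPKM in WT replicates 1 to 4. Ifnar2 fell (-0.29, standard error 0.0681, limma adjusted p = 0.00420), with no overlap between the groups. The change no longer passed with TPM (-0.084) and turned to 1.35 after scaling to adipocyte markers. Ifngr1 (ENSMUSG00000020009, chromosome 10, 19591949 to 19610229, plus strand), the chain that binds interferon gamma, stood at 59.2, 61.5, 61.01 and 58.9 FPKM in KLF10AKO replicates 1 to 4, against 107, 99.2, 110.4 and 116 FPKM in WT replicates 1 to 4, the second highest WT level among the 41 genes. It fell by 0.84 on the log2 scale (standard error 0.0615, limma adjusted p = 2.73e-06) and turned to 0.83 after scaling to adipocyte markers. The 4 KLF10AKO values of Ifngr1 lay within 58.9 to 61.5 FPKM, a coefficient of variation of 2.15%, the lowest of the 41 genes in that group.

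The ratio of Ifnar1 to Ifnar2 FPKM within a library does not depend on any scaling between libraries. It was 0.816, 0.806, 0.695 and 0.856 in KLF10AKO replicates 1 to 4, against 0.462, 0.399, 0.389 and 0.450 in WT replicates 1 to 4. The ratio was thus 1.87-fold higher in KLF10AKO, without overlap between the groups, so the chains changed unequally under every scaling. This pair and the 3 pairs below were chosen after their values were seen and were not tested. The annotation gives Ifnar2 exons shared with the protein-coding locus Gm21970 on the same strand, which makes its level uncertain.

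All 7 transcription factors rose, by log2 changes of 0.67 to 2.52 with a median of 1.57, and the 4 KLF10AKO values of each lay above its 4 WT values. Among all genes tested 39.4% rose, and in 36.2% the KLF10AKO values lay wholly above the WT values. Irf7 (ENSMUSG00000025498, chromosome 7, 141262706 to 141266481, minus strand), which drives the amplifying wave of type I interferon genes, had 65.4, 72.8, 59.4 and 82.6 FPKM in KLF10AKO replicates 1 to 4, against 12.9, 12.2, 12.6 and 11.6 FPKM in WT replicates 1 to 4. Its log2 change was 2.45 (standard error 0.0979, limma adjusted p = 7.83e-08). Irf5, a factor of Toll-like receptor signalling in myeloid and B cells, stood at 41.0, 40.4, 35.7 and 45.5 FPKM in KLF10AKO replicates 1 to 4, against 6.52, 6.04, 6.95 and 7.06 FPKM in WT replicates 1 to 4. With a log2 change of 2.52 (limma adjusted p = 2.22e-08) it had the largest rise of the 7 factors. Irf3, which is present before infection and starts interferon beta transcription, stood at 30.1, 32.6, 29.0 and 36.9 FPKM in KLF10AKO replicates 1 to 4, against 19.9, 21.9, 18.3 and 19.6 FPKM in WT replicates 1 to 4. Its rise of 0.67 (limma adjusted p = 1.04e-04) was the smallest of the 7.

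The partners of the type I signalling complex rose side by side. Stat2 stood at 28.3, 28.4, 23.5 and 31.2 FPKM in KLF10AKO replicates 1 to 4, against 9.33, 8.84, 8.68 and 9.12 FPKM in WT replicates 1 to 4, a log2 change of 1.57 (limma adjusted p = 4.24e-07). Irf9, its DNA-binding partner, stood at 27.0, 25.6, 23.1 and 30.95 FPKM in KLF10AKO replicates 1 to 4, against 7.15, 6.39, 7.68 and 6.86 FPKM in WT replicates 1 to 4, a log2 change of 1.85 (limma adjusted p = 3.33e-07). Both were lowest in KLF10AKO replicate 3 and highest in replicate 4 of that group. Irf1, the factor most closely tied to interferon gamma, stood at 45.0, 46.2, 37.5 and 50.9 FPKM in KLF10AKO replicates 1 to 4, against 21.0, 20.6, 19.5 and 18.4 FPKM in WT replicates 1 to 4, a log2 change of 1.15 (limma adjusted p = 5.28e-06). Irf2, which opposes IRF1 at many promoters, stood at 9.95, 10.3, 8.76 and 10.8 FPKM in KLF10AKO replicates 1 to 4, against 5.40, 4.99, 5.65 and 5.61 FPKM in WT replicates 1 to 4, a log2 change of 0.82 (limma adjusted p = 1.11e-05). In the annotation, exons of Irf1, Irf3, Irf5 and Irf7 overlap those of a protein-coding gene on the other strand (Gm17334, Bcl2l12, Tnpo3 and Phrf1), and those of Irf9 overlap Rnf31 on the same strand. Whether strand was used in counting is not given in the sources used here, so these levels are uncertain.

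**Figure D1:**
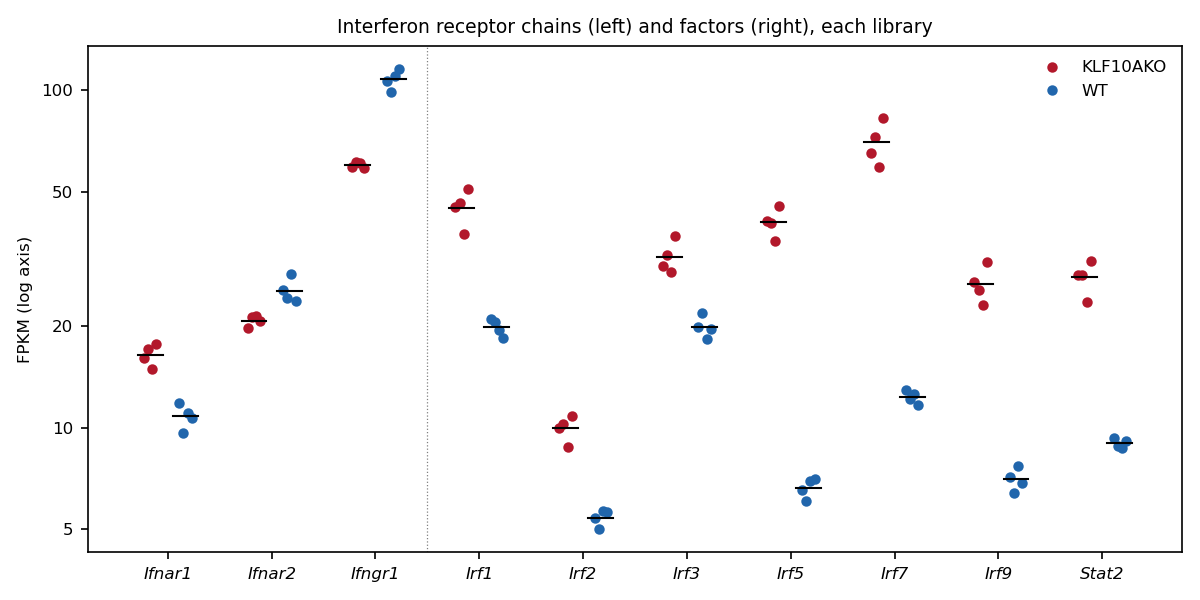
FPKM of the 3 receptor chains and 7 factors on a log axis, one point per library (KLF10AKO red and left, WT blue and right, n = 4 each) with the group mean as a bar. Groups do not overlap for any of the 10 genes: Ifnar2 and Ifngr1 are lower in KLF10AKO as the authors scaled the libraries (both turn higher after scaling to adipocyte markers), and the other 8 are higher. Among all genes tested the KLF10AKO values lay wholly above the WT values in 36.2% and wholly below them in 33.0%.

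Of the 24 type I induced genes 23 rose and 1, Ifi27l2a, fell, against 39.4% and 34.9% of all genes tested. Mx1 (ENSMUSG00000000386, chromosome 16, 97447035 to 97462907, minus strand), a dynamin-like GTPase that restricts influenza viruses, had 47.8, 47.8, 41.2 and 55.1 FPKM in KLF10AKO replicates 1 to 4, against 1.79, 1.26, 1.39 and 1.73 FPKM in WT replicates 1 to 4. Its log2 change was 4.57 (standard error 0.113, limma adjusted p = 5.53e-09), the largest of the 41 genes on that scale, and its mean FPKM was 31.2-fold higher. The neighbouring Mx2, another GTPase of the family, stood at 11.4, 11.7, 10.2 and 14.3 FPKM in KLF10AKO replicates 1 to 4, against 1.20, 1.35, 1.64 and 1.36 FPKM in WT replicates 1 to 4. It rose less, by 2.71 (limma adjusted p = 9.53e-08). The ratio of Mx1 to Mx2 FPKM within a library was 4.21, 4.10, 4.05 and 3.85 in KLF10AKO replicates 1 to 4, against 1.48, 0.931, 0.848 and 1.27 in WT replicates 1 to 4. Mx1 and Mx2 were therefore at similar levels in WT and well apart in KLF10AKO.

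The 2′-5′ oligoadenylate synthetases make the second messenger that activates RNase L, and all 3 of those listed rose. Oas3 (ENSMUSG00000032661, chromosome 5, 120753098 to 120777661, minus strand), the synthetase most responsive to long double-stranded RNA, stood at 12.8, 13.6, 11.7 and 15.2 FPKM in KLF10AKO replicates 1 to 4, against 0.246, 0.323, 0.236 and 0.376 FPKM in WT replicates 1 to 4. With a mean of 1736 reads per KLF10AKO library and 32.0 per WT library, its mean FPKM was 45.2-fold higher, and the log2 change of 4.12 (limma adjusted p = 5.07e-09) understates this because 0.5 FPKM is added before the logarithm. Oas2 stood at 28.0, 27.4, 24.5 and 33.2 FPKM in KLF10AKO replicates 1 to 4, against 4.84, 4.77, 4.42 and 5.35 FPKM in WT replicates 1 to 4, a log2 change of 2.42 (limma adjusted p = 7.35e-08). Oas1a averaged 24.4 ± 3.24 FPKM in KLF10AKO and 6.50 ± 0.522 FPKM in WT (SD, n = 4 each), a log2 change of 1.82. The ratio of Oas3 to Oas1a FPKM was 0.524 to 0.581 in the KLF10AKO libraries, against 0.0369 to 0.0630 in the WT libraries, so it was 12.3-fold higher in KLF10AKO. Oas1g, a close relative of Oas1a, rose by 0.50, a call lost with quantile normalization (0.18, limma adjusted p = 0.191) and with KLF10AKO replicate 4 alone (0.41, limma adjusted p = 0.0721). Reads shared between such copies make their levels uncertain.

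Oasl1, a synthetase-like protein that holds back IRF7 translation in mice, stood at 24.7, 26.7, 22.2 and 31.1 FPKM in KLF10AKO replicates 1 to 4, against 2.23, 2.12, 2.09 and 2.64 FPKM in WT replicates 1 to 4. It rose by 3.26 (limma adjusted p = 2.54e-08), while its neighbour Oasl2, which keeps synthetase activity, rose by 1.29 and averaged 14.1 ± 1.55 FPKM in KLF10AKO and 5.50 ± 0.837 FPKM in WT (SD, n = 4 each). Zbp1, a sensor of Z-form nucleic acid that can start necroptosis, stood at 37.6, 39.6, 32.5 and 45.2 FPKM in KLF10AKO replicates 1 to 4, against 2.62, 1.96, 2.28 and 1.93 FPKM in WT replicates 1 to 4. Its log2 change was 3.86 (limma adjusted p = 1.40e-08), and its mean FPKM was 17.6-fold higher. Usp18, which removes ISG15 from proteins and damps signalling at IFNAR2, stood at 30.8, 33.2, 24.9 and 36.2 FPKM in KLF10AKO replicates 1 to 4, against 3.58, 3.38, 3.65 and 3.37 FPKM in WT replicates 1 to 4. Its log2 change was 2.98 (limma adjusted p = 3.89e-08), and its 4 WT values lay within 3.37 to 3.65 FPKM.

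The Ifit genes encode proteins that bind foreign RNA and limit its translation. Ifit2 stood at 36.0, 36.6, 30.4 and 42.8 FPKM in KLF10AKO replicates 1 to 4, against 7.26, 7.64, 8.08 and 8.08 FPKM in WT replicates 1 to 4, a log2 change of 2.15 (limma adjusted p = 1.68e-07). Ifit3 averaged 121 ± 15.5 FPKM in KLF10AKO and 24.0 ± 2.998 FPKM in WT (SD, n = 4 each) and Ifit1 averaged 22.3 ± 2.91 FPKM in KLF10AKO and 6.06 ± 0.814 FPKM in WT (SD, n = 4 each), log2 changes of 2.31 and 1.80. The near-identical copy Ifit3b rose by 1.89, so reads of that pair may be divided between them. Isg15, the ubiquitin-like modifier, averaged 69.8 ± 12.0 FPKM in KLF10AKO and 18.8 ± 3.30 FPKM in WT (SD, n = 4 each), a log2 change of 1.86, and varied most of the 41 genes within KLF10AKO, by a coefficient of variation of 17.2%.

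The remaining type I induced genes rose by at most 1.51 on the log2 scale, apart from Ifi27l2a. Cmpk2, a mitochondrial nucleotide kinase, averaged 18.5 ± 2.44 FPKM in KLF10AKO and 6.13 ± 0.452 FPKM in WT, and Rsad2 (viperin), the antiviral enzyme encoded beside it, averaged 12.0 ± 1.63 FPKM in KLF10AKO and 8.23 ± 0.557 FPKM in WT (SD, n = 4 each). Their log2 changes were 1.51 and 0.51. Rtp4 and Xaf1, a partner of the apoptosis inhibitor XIAP, rose by 1.36 and 1.22. Eif2ak2 (PKR), the kinase that stops translation on double-stranded RNA, rose by 1.02. Ifi35 and Ifi44 rose by 0.94 and 0.83, and Bst2 (tetherin), which holds budding virus at the cell surface and also marks plasmacytoid dendritic cells, rose by 0.76 and averaged 181 ± 16.7 FPKM in KLF10AKO and 107 ± 11.5 FPKM in WT (SD, n = 4 each). Trim25, the ubiquitin ligase that acts on RIG-I, rose by 0.45.

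Ifih1 (MDA5), a sensor of long double-stranded RNA, averaged 4.98 ± 0.398 FPKM in KLF10AKO and 4.28 ± 0.215 FPKM in WT (SD, n = 4 each). Its log2 change of 0.20 (95% interval 0.03 to 0.36, limma adjusted p = 0.0318) was the smallest rise that passed. The call was lost with quantile normalization, where the change turned to -0.043, with the replicate block, with KLF10AKO replicate 4 alone and without any of 4 libraries (KLF10AKO replicates 2 and 4, WT replicates 1 and 2).

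Ifi27l2a (ENSMUSG00000079017, chromosome 12, 103442167 to 103443680, minus strand), an interferon alpha inducible gene, moved the other way from the rest of the type I induced genes. Its values were 2075, 2117, 2458 and 1868 FPKM in KLF10AKO replicates 1 to 4, against 5705, 4263, 6387 and 5355 FPKM in WT replicates 1 to 4. It fell by 1.34 on the log2 scale (standard error 0.171, limma adjusted p = 9.34e-05), with all 4 KLF10AKO values below all 4 WT values, and turned to 0.34 after scaling to adipocyte markers. It had the highest level of the 41 genes in both groups, and took 15.2% to 23.5% of their reads in KLF10AKO and 53.1% to 60.8% in WT. Without it, the other genes took 0.465% ± 0.0569 of all reads in KLF10AKO and 0.169% ± 0.00416 in WT (SD, n = 4 each). Its neighbour Ifi27 fell as well, by 1.41 on the log2 scale, with 117 ± 11.2 FPKM in KLF10AKO and 312 ± 37.0 FPKM in WT (SD, n = 4 each), and the weakly read Ifi27l2b fell by 0.34 on that scale. The Ifi27l2b call was lost with TPM (limma adjusted p = 0.194) and with KLF10AKO replicate 4 alone (limma adjusted p = 0.0809), and its change moved to -0.92 with quantile normalization. After scaling to adipocyte markers the changes were 0.27 for Ifi27 and 0.53 for Ifi27l2b. Ifi27l2b passed the filter through WT alone (mean 0.434 FPKM in KLF10AKO and 0.686 FPKM in WT), so its being tested already required a difference.

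Of the 7 gamma induced genes 6 rose, 0 fell and Gbp2 did not pass. Among all genes tested 39.4% rose and 34.9% fell. Irgm1 (ENSMUSG00000046879, chromosome 11, 48861968 to 48871683, minus strand), an immunity-related GTPase that acts on pathogen vacuoles and autophagy, stood at 28.7, 29.8, 24.2 and 31.2 FPKM in KLF10AKO replicates 1 to 4, against 5.78, 5.42, 6.95 and 5.48 FPKM in WT replicates 1 to 4. Its log2 change was 2.17 (standard error 0.101, limma adjusted p = 1.94e-07), the largest of the 7. Igtp, another GTPase of that family, stood at 50.8, 50.9, 42.0 and 57.3 FPKM in KLF10AKO replicates 1 to 4, against 15.2, 14.7, 18.2 and 9.97 FPKM in WT replicates 1 to 4, a log2 change of 1.78 (limma adjusted p = 1.42e-05). The WT values of Igtp varied most of the 41 genes, by a coefficient of variation of 23.4%, with replicate 4 lowest. Igtp shares exons with Irgm2 on the same strand, so its level is uncertain.

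Guanylate-binding proteins are GTPases that coat and break open pathogen vacuoles. Gbp5, which also promotes inflammasome assembly, stood at 7.93, 8.58, 7.09 and 10.1 FPKM in KLF10AKO replicates 1 to 4, against 3.21, 3.12, 3.86 and 2.86 FPKM in WT replicates 1 to 4, a log2 change of 1.24 (limma adjusted p = 1.27e-05). Gbp4 stood at 25.6, 26.4, 21.4 and 29.2 FPKM in KLF10AKO replicates 1 to 4, against 12.7, 11.3, 14.0 and 11.1 FPKM in WT replicates 1 to 4, a log2 change of 1.03 (limma adjusted p = 2.54e-05), and shares exons with Gbp8 and Gbp9 on the same strand. Gbp7 averaged 14.1 ± 1.48 FPKM in KLF10AKO and 8.75 ± 1.88 FPKM in WT (SD, n = 4 each), a log2 change of 0.67. Gbp3 averaged 20.1 ± 2.08 FPKM in KLF10AKO and 14.4 ± 1.36 FPKM in WT (SD, n = 4 each), a log2 change of 0.47. With KLF10AKO replicate 4 alone Gbp7 no longer passed (0.85).

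Gbp2 (ENSMUSG00000028270, chromosome 3, 142620602 to 142638008, plus strand) had 25.4, 27.4, 26.8 and 29.8 FPKM in KLF10AKO replicates 1 to 4, against 34.0, 27.7, 36.2 and 24.0 FPKM in WT replicates 1 to 4. The groups overlapped: WT replicate 2 lay among the KLF10AKO values, WT replicate 4 below them and WT replicates 1 and 3 above them. Its log2 change was -0.14 (95% interval -0.42 to 0.15, limma adjusted p = 0.343), and it turned to 0.069 with TPM and to 1.51 after scaling to adipocyte markers. The ratio of Gbp5 to Gbp2 within a library was 0.265 to 0.338 in KLF10AKO, against 0.0945 to 0.119 in WT, 2.84-fold higher in KLF10AKO. Among the 4 Gbp genes on chromosome 3 the log2 changes ran from -0.14 to 1.24. Among the 6 on chromosome 5 they ran from -1.45 for Gbp11, which fell, to 4.43 for Gbp8, and 5 of those 6 rose. Of these, Gbp8 and Gbp10 passed the filter through KLF10AKO alone, with WT means of 0.298 and 0.412 FPKM, so their being tested already required a difference.

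Set side by side, type I induced genes had the larger median rise. Their median log2 change was 1.65 over 24 genes, against 1.03 over the 7 gamma induced genes and 0.05 over all genes tested. Changes of at least 1 were met by 17 of 24 and 4 of 7 genes, and changes of at least 2 by 9 of 24 and 1 of 7. How many of all genes tested reached these sizes was not counted. The gamma induced changes (-0.14 to 2.17) lay wholly within the span of the type I induced changes (-1.34 to 4.57). In each KLF10AKO library the type I median exceeded the gamma median, by 0.61, 0.59, 0.60 and 0.60 in replicates 1 to 4, measured from the WT mean of each gene. The same difference in WT replicates 1 to 4 was -0.04, 0.09, -0.22 and 0.12. Because the groups were composed with results of these data known and several gamma induced genes also answer to type I interferon, the difference between the medians was not tested. It was 0.55 to 0.66 under every pseudocount and scaling tried.

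**Figure D2:**
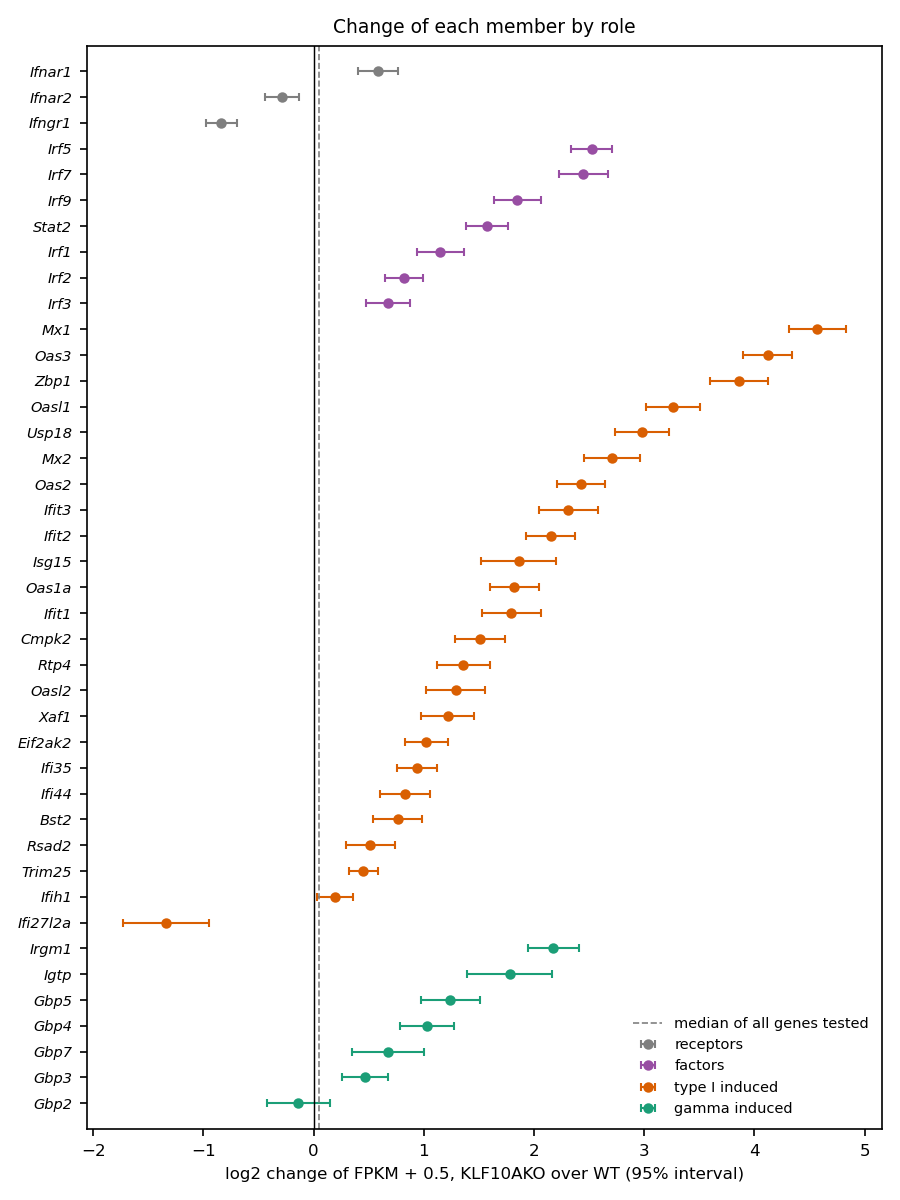
Log2 change of FPKM + 0.5 (KLF10AKO over WT, n = 4 each) for each of the 41 genes, coloured by role, with 95% intervals from limma; the dashed line is the median of all genes tested. Mx1 (4.57), Oas3 (4.12) and Zbp1 (3.86) are farthest right, and Ifi27l2a (-1.34), Ifngr1 (-0.84), Ifnar2 (-0.29) and Gbp2 (-0.14) lie left of 0, all 4 of them turning positive after scaling to adipocyte markers.

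Among the KLF10AKO libraries the risen genes kept a common order. Of the 37 genes that rose, 36 were highest in KLF10AKO replicate 4 and 36 were lowest in KLF10AKO replicate 3. The share of all risen genes with this order was not counted, so the order is not shown to be particular to these genes. Among the WT libraries the order was less uniform: the highest value of these 37 genes fell on replicate 3 in 14 cases and on the other replicates in 7 or 8. Ifi27l2a went against this order, with its highest KLF10AKO value in replicate 3 and its lowest in replicate 4. Medians over all 41 genes lay at 1.26, 1.31, 1.07 and 1.50 in KLF10AKO replicates 1 to 4, measured from the WT mean. Medians of the 9 B cell markers (6.723, 6.718, 6.461 and 6.998) were likewise highest in replicate 4 and lowest in replicate 3, and medians of the 12 adipocyte markers (-1.746, -1.794, -1.560 and -2.005) ran the reverse way. Medians of the plasmacytoid dendritic cell markers lay at 2.34, 2.32, 2.25 and 2.67, also highest in replicate 4 and lowest in replicate 3. The same ends held for NK cell markers (1.75, 1.90, 1.40 and 1.93) and conventional dendritic cell markers (1.18, 1.18, 0.83 and 1.40). Medians of the 9 skeletal muscle markers (8.68, 8.26, 9.55 and -0.015) ran the reverse way, as did those of the macrophage markers at their ends (-0.42, -0.37, -0.24 and -0.62). Medians of the 5 endothelial markers (-0.849, -0.898, -0.811 and -0.807) were highest in replicate 4 but lowest in replicate 2. The part of these cells in the order was not tested.

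**Figure D3:**
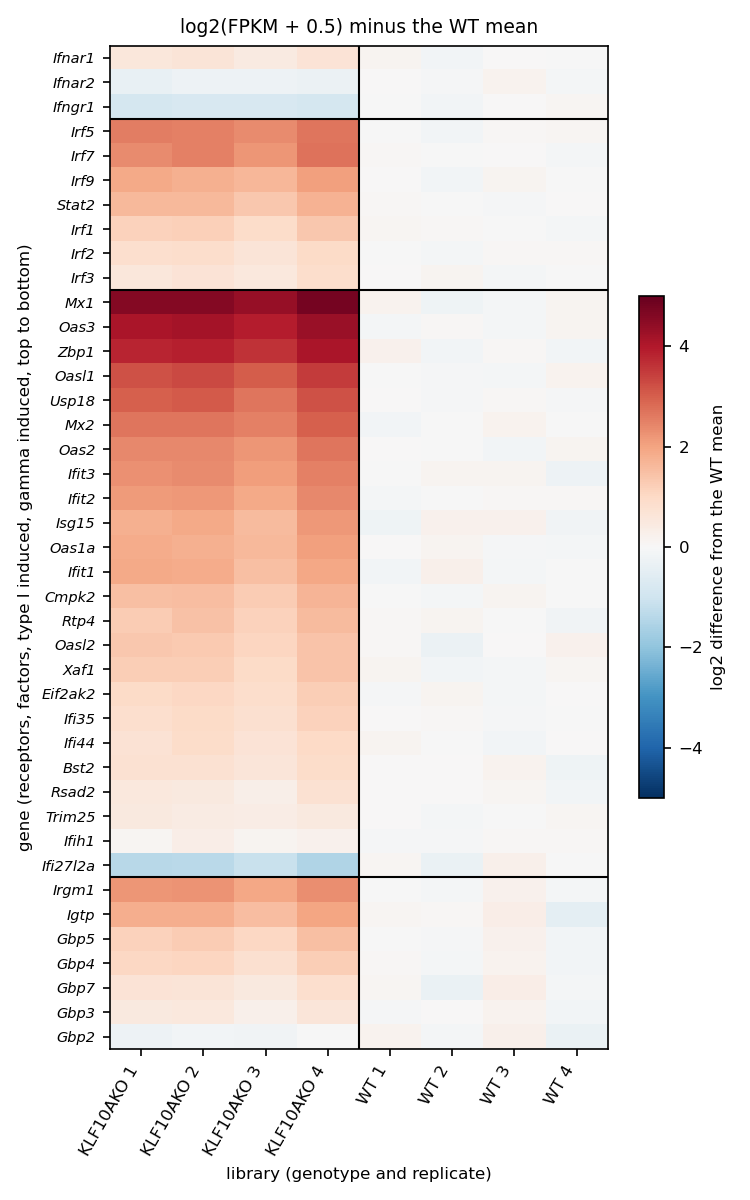
Heat map of log2(FPKM + 0.5) minus the WT mean of each gene in the 4 KLF10AKO and 4 WT libraries, with the genes in role blocks ordered by change. Red is above the WT mean and blue below it: the KLF10AKO columns are red for 37 genes, palest in replicate 3, and blue for Ifi27l2a, Ifngr1 and Ifnar2, which turn positive after scaling to adipocyte markers.

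**Figure D4:**
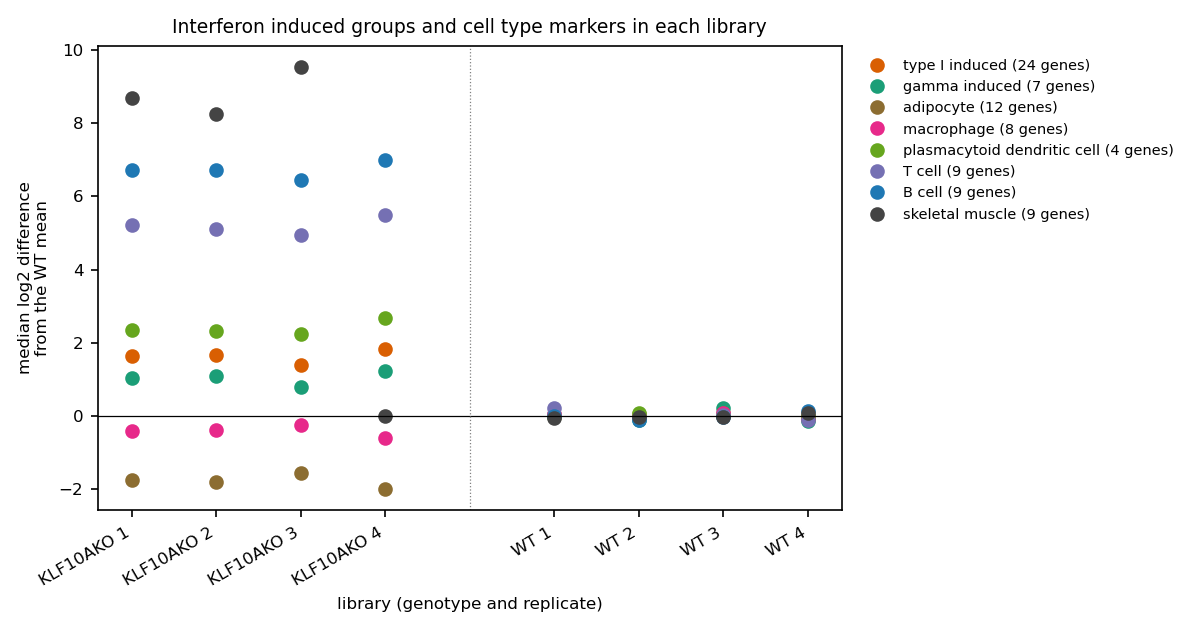
Median log2 difference from the WT mean in each library for the type I and gamma induced genes and for 6 lists of cell type markers. In KLF10AKO libraries the type I median (1.38 to 1.82) lies above the gamma median (0.78 to 1.23), both lying between those of macrophage markers (-0.62 to -0.24) and plasmacytoid dendritic cell markers (2.25 to 2.67), and skeletal muscle markers drop to -0.015 in KLF10AKO replicate 4. Of lists not drawn, NK cell markers (1.40 to 1.93) overlap the type I range and conventional dendritic cell markers (0.83 to 1.40) the gamma range.

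Transcripts of the interferons themselves were scarce. Of 21 interferon genes 13 had a read in any library. The 18 type I genes together had 20 reads over the 4 KLF10AKO libraries and 10 over the 4 WT libraries, with 0 to 9 in any library. Among them, Ifnab had 4, 1, 1 and 0 reads in KLF10AKO replicates 1 to 4 and 0 in WT, and Ifnb1 had 1 read in KLF10AKO replicate 4. Single or few reads were found for Ifna4, Ifna6, Ifna7, Ifna9, Ifna13, Ifna14, Ifna15, Ifne, Ifnk and Ifnz. Ifng had 15, 12, 7 and 9 reads in KLF10AKO replicates 1 to 4 and 2, 0, 1 and 1 in WT replicates 1 to 4, without overlap between the groups. KLF10AKO values also lay wholly above WT values in 36.2% of all genes tested, and counts this low leave the Ifng difference uncertain. None of the 21 reached the filter, so none was tested, and differences among the type I genes were not detectable at this depth.

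Of 72 further genes of the pathway 54 rose, 8 fell, 5 did not pass and 5 were under the filter, with a median log2 change of 1.32, against 39.4% of all genes tested that rose and 34.9% that fell. The kinase Jak1 averaged 46.1 ± 3.32 FPKM in KLF10AKO and 24.5 ± 0.413 FPKM in WT (SD, n = 4 each) and rose by 0.90. The second gamma receptor chain Ifngr2 rose by 0.78, whereas Ifngr1 fell. Irf8 and Irf4, factors of dendritic and B cells, rose by 3.32 and 2.02, and the co-repressor Irf2bp2 by 0.61. All 5 genes that restrain signalling rose, among them the phosphatase Ptpn6 of blood cells at 4.63 and the suppressors Socs1 and Socs3 at 2.71 and 2.51. Of 8 sensors and adaptors 7 rose, with Tmem173 (STING) at 2.48, the kinase Ikbke at 2.03 and the antibody receptor Trim21 at 1.48, while the mitochondrial adaptor Mavs fell by 0.24 on the log2 scale. After scaling to adipocyte markers 66 of the 67 tested genes were called higher and 0 lower, and 7 of the 8 that had fallen turned positive. Under that scaling 14117 of all 16012 genes tested were called higher. With TPM 56 rose and 4 fell, against 7041 and 4071 of all 16012 genes tested. With quantile normalization 52 rose and 9 fell, against 4947 and 7067 of all genes tested. Mavs, Parp12, Phf11d and Ifi27l2b no longer passed with TPM (log2 changes of -0.039, -0.097, -0.018 and -0.344).

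Other induced genes also moved in both directions. Of 30 other type I induced genes 22 rose and 5 fell (median log2 change 1.40), against 39.4% and 34.9% of all genes tested, and the 5 include Ifi27l2b. Ifit1bl1 rose by 4.56, Pml of nuclear bodies by 2.92 and Ifi203 by 2.74. Besides Ifi27 the falls included Lgals3bp, a secreted glycoprotein, at -0.87 and Parp12 at -0.30. Of 16 other gamma induced genes 11 rose and 2 fell (median log2 change 1.03), against the same shares of all genes, and the 11 include Gbp8 and Gbp10. Serpina3g rose by 4.72, Gbp8 by 4.43 and Ciita, the master regulator of MHC class II, by 3.37, while Nos2, inducible nitric oxide synthase, and Gbp11 fell, by log2 changes of -0.81 and -1.45. Cxcl9, a chemokine gene widely used as a readout of interferon gamma, averaged 19.6 ± 0.935 FPKM in KLF10AKO and 24.6 ± 5.48 FPKM in WT (SD, n = 4 each) and did not pass (-0.29, limma adjusted p = 0.102).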

How the data were processed

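Poly(A)-selected mRNA of iWAT was sequenced in 8 libraries. The submitters' processing notes name edgeR 3.22.5, featureCounts 1.5.0-p3, HISAT2 2.0.5 and the mm10 build. What each tool did, which annotation was counted and whether strand was used is not given there. Per the file headers, the authors deposited FPKM with each gene's length. FPKM times length was a whole multiple of a step per library for 100% of values, within 0.01 of a read, which gave the reads. Reads came to 0.901 to 0.939 times the implied library size in KLF10AKO and 1.05 to 1.09 times in WT.

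limma 3.58.1 in R 4.3.3 (lmFit, eBayes with trend, no covariate) was fitted to log2(FPKM + 0.5) of 16012 genes with a mean FPKM of at least 0.5. P-values are two-sided, adjusted by Benjamini-Hochberg over all of them, threshold 0.05. The procedure was tested on simulated data with far fewer changed genes than were called here, so that test does not cover differences this broad. Members, lists, role groups and markers were chosen with earlier results of these data known. Values in every library are given for receptors, factors, the 8 type I and 4 gamma induced genes of lowest p and genes that fell or did not pass; for other pathway genes, up to 3 of lowest p per direction and list are named, and 1 that met this rule is not reported here. Others named (Ifi27l2b, Ifit3b, Oas1g, Gbp10, Phf11d, Cxcl9, marker counts) were chosen after their values were seen. Alternatives were other pseudocounts, filters, scalings and variance models, limma's voom on the reads, the replicate number as a block, leaving out libraries singly, and KLF10AKO replicate 4 alone. The scalings were applied to the other pathway genes, and the ratios within a library were chosen, after the data were seen. Exon overlaps come from GENCODE M21, which held all 41 identifiers. No value met the rule for a closer look, over 82 groups of 4 libraries tested for a library far from the others.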

Additional observations from a re-analysis of the deposited data

How the results depend on the processing

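Counts of called genes (37 higher and 3 lower) stayed within 1.5 times under every alternative but scaling to adipocyte markers. That scaling gave 41 higher and 0 lower, against 14117 higher and 180 lower among all 16012 genes tested. It reversed Ifnar2 (1.35), Ifngr1 (0.83), Ifi27l2a (0.34), Gbp2 (1.51) and Klf10 (0.74), and moved the type I and gamma medians to 3.23 and 2.65. These medians were 1.91 and 1.26 with TPM and 1.82 and 1.23 with KLF10AKO replicate 4 alone, and the type I median was 1.52 with quantile normalization. Gbp2 turned to 0.069 with TPM and Ifih1 to -0.043 with quantile normalization. The median of all genes was 0.05 as reported, 0.25 with TPM, -0.16 with quantile normalization and 1.48 with marker scaling, and the share of called genes that were higher was 53.0%, 63.4%, 41.2% and 98.7%; these shifts follow from the scalings. Leaving out each library in turn gave 36 to 37 higher and 3 lower genes, 22 to 23 type I and 6 gamma induced genes higher, and medians of 1.59 to 1.74 and 0.97 to 1.12. With the replicate block 36 genes rose, 22 of them type I induced, and Ifih1 lost its call (adjusted p = 0.0605 from limma). It changed no other call among the 41 genes. Correlations of the deviations of same-numbered libraries were 0.0211, 0.003, 0.0310 and 0.0081 in replicates 1 to 4. KLF10AKO replicates 1, 3 and 4 correlated best with their own number, and replicate 2 with WT replicate 1 (0.0112). Values this near 0 cannot settle whether the numbers pair libraries. With KLF10AKO replicate 4 alone, assumed to vary like WT, Ifnar2, Ifih1 and Gbp7 lost their calls. The 4 ratios within a library did not overlap between the groups, so leaving out a library could not change their direction. The fewest reads of a gene of the set in a library were 25, and depth bears most on the interferon genes and on Oas3 in WT.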
